A study of Homo sapiens with 4 samples.

Results

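The antioxidant genes described here are 36 genes of the NRF2, glutathione and thioredoxin systems, chosen by name: the control of NRF2 and its inducible targets, the enzymes that make and use glutathione, the thioredoxins and peroxiredoxins, superoxide dismutases and catalase, enzymes that supply NADPH, and ferritin. Each of the 36 names matched 1 row among the 57773 genes of the table, and 34 of them were among the 11324 genes whose higher group mean reached 1 RPKM (read counts scaled to transcript length and library size). OSGIN1 and GPX1 were below that level. The samples were KMS12PE and KMS11 cells, established human multiple myeloma lines, which derive from a cancer of antibody-secreting plasma cells. The treatments were OSSL_325096 at 1 µM, a compound whose structure is not known here, and the solvent DMSO. Each treatment had 2 libraries, 1 from each line, so each line had no replicate. The length of exposure was not given in the sources used here. All values come from the authors' own comparison over both lines with a p-value, a log2 fold change and 1 level per gene, that of the treatment with the higher mean. Single libraries were not analysed here, and their depth is unknown. Within a treatment the 2 libraries were of different lines, so their spread includes the difference between KMS12PE and KMS11. It is unknown whether the authors' comparison paired the libraries by line. If it did not, the p-values weigh the treatment against that difference too. For each line, the labels do not say whether its 2 libraries came from separate cultures. The p-values therefore rest only on the spread between these libraries. Whether the authors' model took that spread gene by gene or shared it across genes is unknown. A positive log2 fold change means higher with OSSL_325096, by the order in the table's title.

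NRF2, the protein of NFE2L2, is a transcription factor that is held at a low level by KEAP1, an adaptor that marks it for degradation. When reactive molecules modify cysteines of KEAP1, NRF2 persists, pairs with small MAF proteins and binds antioxidant response elements in front of genes that make glutathione, reduce thioredoxin, supply NADPH and handle iron and haem. Peroxides are then reduced by glutathione peroxidases and peroxiredoxins, whose electrons come through glutathione or thioredoxin from NADPH. Plasma cells secrete much disulfide-bonded antibody, and the oxidative folding of it in the endoplasmic reticulum is a known source of peroxide.

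The lines carried their defining genes. The plasma cell genes SDC1, CD38, TNFRSF17, IRF4, PRDM1 and XBP1 had levels of 11.4 to 180 RPKM per the authors' deposited table, and CCND1, FGFR3, MAF and WHSC1, which the translocations of these lines drive, had 22.7 to 555 RPKM there. The T cell gene CD3E, the myeloid gene LYZ and the fibroblast gene COL1A1 had 0.0212 to 0.0959 RPKM per the authors' deposited table. The epithelial gene EPCAM had 15.8 RPKM and a log2 fold change of -0.18 per the authors' deposited table, and its part in the results was not tested.

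The antioxidant genes had fold changes close to 0 between OSSL_325096 and DMSO. Of the 34 measured members 19 had a fold change above 0 and 15 below 0, where 51.0% of all genes kept were above 0. Their median log2 fold change was 0.04, against 0.01 over all 11324 genes. None was 1.5-fold higher (0 of 34; background 4.95%) and none 1.5-fold lower (0 of 34; background 4.95%), so that 0 members lay outside 1.5-fold in either direction, where 9.90% of all genes did. The member farthest from 0 was SRXN1, at 1.40-fold higher per the authors' deposited table, and 14.8% of all genes kept were at least as far from 0. Of the members, 17 lay within 1.1-fold of no change and 24 within 1.2-fold, while 33.9% and 58.9% of all genes kept did. The median absolute log2 fold change was 0.13 over the members, 0.21 over all genes kept, and 0.20 over genes at or above the members' median level of 37.8 RPKM.

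No member passed the test. Benjamini-Hochberg adjustment of the p-values of the authors' model over the 11324 genes gave 0 genes under 0.05 (0.00% of genes, and 0 of 34 members), and the lowest adjusted value was 0.999909. At an unadjusted p under 0.05 there were 5 genes (0.0442%), of which 0 were members. P-values spread evenly between 0 and 1 would put a share of 0.05 there, so these were conservative across all genes. The members' own p-values per the authors' deposited table ran from 0.612 to 0.998. The standard error implied by each fold change and its p-value had a median of 0.98 over the members on the log2 scale. The 95% intervals built from it held 0 for 34 of 34 members, and also held both a 2-fold higher and a 2-fold lower level for all 34. The lowest upper bound, that of PRDX3, was 2.93-fold higher. Fold changes near 0 in this comparison therefore do not show that a gene was unaffected. The intervals are only as well calibrated as the p-values, and whether the difference between the lines widened them was not tested.

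**Figure D1:**
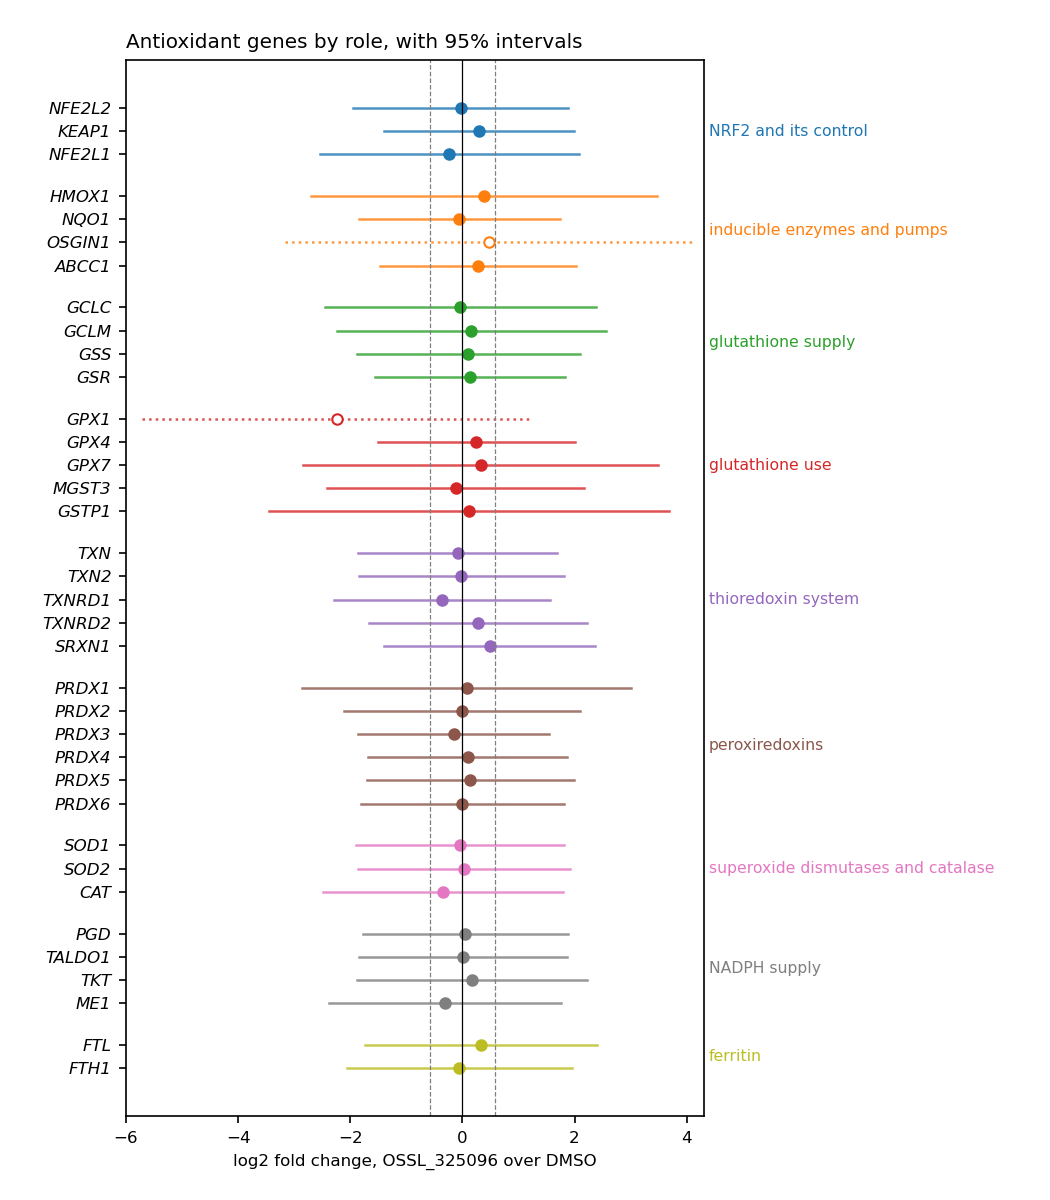
Horizontal axis, log2 fold change with OSSL_325096 relative to DMSO, for each of the 36 antioxidant genes, grouped by role, with bars for the 95% interval from the implied standard error. Dashed lines mark 1.5-fold and open points with dotted bars are OSGIN1 and GPX1, below 1 RPKM; the 34 filled points lie between -0.36 and 0.49 and each of their bars crosses 0.

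The genes of NRF2 itself and its control came first. NFE2L2 (chromosome 2, 178092323 to 178257425, minus strand, hg19) had a level of 10.5 RPKM and a log2 change of -0.03 per the authors' deposited table, with an implied standard error of 0.98. KEAP1 (chromosome 19, 10596796 to 10614417, minus strand) had 41.8 RPKM and 0.30 per the authors' deposited table, with an implied standard error of 0.87. The sensor's transcript was thus the more abundant of the pair per kilobase. NFE2L1, which encodes NRF1, a related factor held in the endoplasmic reticulum that raises proteasome genes when degradation is blocked, had 148 RPKM and a log2 fold change of -0.23 per the authors' deposited table. Its implied standard error of 1.18 was larger than that of 97.1% of the 444 genes within 2-fold of its level.

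Around them, 13 of 14 listed partners and degradation factors were measured. Of these 7 were above 0 and 6 below, with a median log2 fold change of 0.02, and 1 gene lay past 1.5-fold on each side (7.69%, background 4.95% on each). The lower was BACH2, a repressor that pairs with small MAF proteins and is known from B cell development, at -0.69 per the authors' deposited table (3.94 RPKM, unadjusted p = 0.503). The higher was MAFK, a small MAF partner of NRF2, at 0.66 per the authors' deposited table (20.7 RPKM, unadjusted p = 0.479). SQSTM1, whose protein p62 can draw KEAP1 into autophagy, had 0.44 per the authors' deposited table. No gene of this list passed the adjusted test. When a regression on transcript GC content, length and level across all genes was taken off, a setting in which 3.43% of genes were 1.5-fold higher and 3.96% 1.5-fold lower, MAFK had 0.36 and 0 genes of the list were past 1.5-fold higher, while 2 were past 1.5-fold lower, BACH2 at -0.73 and MAFF, another small MAF gene, at -0.63.

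The element that NRF2 binds was searched for by its core letters, TGACNNNGC, on both strands of RefSeq promoter windows of 300 bases (GRCh38.p14), which run from 250 bases before a start site to 50 after it. Windows were found for 27 members, and 6 of these (22.2%) held the letters, where 16.1% of all 27305 genes with windows did. By window, 7 of 39 member windows (17.95%) held the letters, beside 13.35% of all windows. A narrower form, TGACTNNGC, is contained in the first and was in 3.76% of all windows. That share counts windows, so the number of member stretches below is not to be set against it. The 5 member stretches that hold it are shown because they are the closest in letters to the known element, 29 bases each, 5′ to 3′ with the core in capitals and placed on hg19 by exact match near the gene.
GSTP1 (chr11:67351207-67351235, plus strand): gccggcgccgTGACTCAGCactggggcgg
ME1 (chr6:84140889-84140917, minus strand): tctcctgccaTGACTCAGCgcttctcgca
GCLM (chr1:94375002-94375030, plus strand): tggaagacaaTGACTAAGCagaaatcgta
KEAP1 (chr19:10613460-10613488, plus strand): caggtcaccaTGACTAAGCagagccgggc
TXNRD1 (chr12:104609448-104609476, plus strand): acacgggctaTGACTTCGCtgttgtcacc
GSTP1 and ME1 share the letters TGACTCAGC, which were in 0.561% of all windows, and their log2 fold changes per the authors' deposited table were 0.12 and -0.31. GCLM and KEAP1 share TGACTAAGC, with 0.16 and 0.30 per the authors' deposited table, and TXNRD1 had -0.36. The 6 measured members with the core letters, which also include PGD, ran from -0.36 to 0.30 with a median of 0.09, and the 19 measured members whose windows lack them ran from -0.34 to 0.49 with a median of 0.01. The ranges overlapped. A match is a description of the letters and not a binding site, and known elements of several of these genes lie outside such windows.

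Among the inducible enzymes and pumps, HMOX1 and NQO1, the genes most often read as signs of NRF2 activity, had values of opposite sign, neither past the test. HMOX1 (chromosome 22, 35776354 to 35790207, plus strand), haem oxygenase 1, which opens the haem ring and frees its iron, had a level of 3.23 RPKM and a log2 change of 0.38 per the authors' deposited table, with a 95% interval of -2.70 to 3.46. NQO1 (chromosome 16, 69740899 to 69760854, minus strand), a quinone reductase, had 19.3 RPKM and -0.05 per the authors' deposited table, with an interval of -1.85 to 1.74. ABCC1, a pump that exports glutathione conjugates, had 24.2 RPKM and 0.28 per the authors' deposited table. OSGIN1, an oxidative stress-induced growth inhibitor, had a level of only 0.901 RPKM and a log2 change of 0.47 per the authors' deposited table, with an implied standard error of 1.85. These fold changes were all smaller than their implied standard errors.

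Other NRF2-linked detoxification genes also lay near 0. Of 22 listed genes 15 were measured, 9 above 0 and 6 below, with a median log2 fold change of 0.02. None was 1.5-fold away in either direction (0 of 15, background 9.90%). The carbonyl reductase gene CBR3 was farthest, at 0.50 per the authors' deposited table with an implied standard error of 2.22. ABCB6, a porphyrin transporter, had -0.35 and SLC6A9, a glycine transporter, -0.34 per the authors' deposited table.

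Glutathione is made in a pair of steps. GCLC (chromosome 6, 53362139 to 53481768, minus strand) and GCLM (chromosome 1, 94350761 to 94374966, minus strand) encode the catalytic and modifier subunits of glutamate-cysteine ligase, the rate-limiting enzyme. Their levels were 2.57 and 3.11 RPKM per the authors' deposited table, with log2 fold changes of -0.04 and 0.16. GSS, the synthetase of the second step, had 21.8 RPKM and 0.11 per the authors' deposited table. GSR, the reductase that restores oxidised glutathione with NADPH, had 21.5 RPKM and 0.14 per the authors' deposited table, with the smallest implied standard error of the members, 0.86, and an interval of -1.55 to 1.83. The ligase subunits were thus the low transcripts of the pathway per kilobase, and 3 of 4 supply genes lay slightly above 0 without passing the test.

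The next group was listed under glutathione use. In it GPX4, which reduces lipid peroxides in membranes and restrains ferroptosis, had 99.4 RPKM per the authors' deposited table. Its log2 fold change was 0.24 (implied standard error 0.90). GPX7, a peroxidase of the endoplasmic reticulum placed in this group by its name, had 13.6 RPKM and 0.33 per the authors' deposited table. GSTP1, a glutathione transferase, had 169 RPKM and 0.12 per the authors' deposited table, and MGST3, a microsomal transferase, had 3.05 RPKM and -0.12. GSTP1 had the widest interval of the measured members, -3.44 to 3.69. Its implied standard error of 1.82 exceeded that of 99.2% of the 378 genes within 2-fold of its level, and that of GPX7, 1.62, exceeded 96.6% of 3888 such genes. How far the lines differed in these genes cannot be read from 1 comparison over both.

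GPX1 (chromosome 3, 49394609 to 49396033, minus strand), the main cytosolic glutathione peroxidase, had values unlike the others. Its level was 0.312 RPKM per the authors' deposited table, the lowest of the 36 genes, and its log2 fold change was -2.24, or 4.72-fold lower with OSSL_325096. The implied standard error was 1.77, the interval ran from -5.72 to 1.24 and the unadjusted p per the authors' deposited table was 0.207, so that this difference did not pass the test either. Both rows of the table named as GPX1 pseudogenes were listed at 0. The number of reads behind the value is unknown, and so is the counting of reads that match several places. The level of GPX1 is therefore itself uncertain.

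Most measured genes of the wider glutathione network had values below 0. Of 30 listed genes 23 were measured, 16 below 0 and 7 above, where 51.0% of all genes kept were above 0. Their median log2 fold change was -0.15 (all genes kept, 0.01). At least 1.5-fold lower were 2 (8.70%, background 4.95%), and 0 were as far above. With the regression taken off, 5 of 23 were above 0, beside 5579 of 11104 genes. The counts past 1.5-fold were then 2 lower (8.70%, background 3.96%) and 1 higher (4.35%, background 3.43%). The last was CHAC2, a relative of CHAC1, at 0.63. The 2 were CHAC1, which breaks down glutathione, at -0.82 per the authors' deposited table (46.0 RPKM, unadjusted p = 0.439), and SLC7A11, which imports cystine for glutathione synthesis, at -0.78 (5.26 RPKM, unadjusted p = 0.444). ESD, which hydrolyses S-formylglutathione, had -0.48 per the authors' deposited table. The 2 lowest genes of the list act in import of the building block and breakdown of the product, and neither passed the test. The synthesis genes had values near 0, with intervals that held a 2-fold change in either direction.

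The thioredoxin system showed values on both sides of 0. TXN, the cytosolic thioredoxin, had 174 RPKM and a log2 fold change of -0.09 per the authors' deposited table, and TXN2, the mitochondrial thioredoxin, had 28.3 RPKM and -0.02. TXNRD1 (chromosome 12, 104609557 to 104744061, plus strand), the selenium-containing reductase of cytosolic thioredoxin, had 39.2 RPKM and the lowest value of the measured members, -0.36 per the authors' deposited table, with an interval of -2.29 to 1.56. TXNRD2, its mitochondrial counterpart, had 5.56 RPKM and 0.28 per the authors' deposited table. SRXN1 (chromosome 20, 627259 to 634014, minus strand), sulfiredoxin, which repairs over-oxidised peroxiredoxins and is a known NRF2 target, had 31.0 RPKM and the highest value of the measured members, 0.49 per the authors' deposited table, with an interval of -1.40 to 2.37. The genes at both ends of the range therefore belong to the same system and both are known NRF2 targets, and the difference between them was not tested.

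The peroxiredoxins, which reduce much of the peroxide in cells, spanned a narrow range. Across the 6 genes the log2 fold changes ran from -0.15 to 0.14 with a median of 0.04, and 3 were above 0 and 3 below. PRDX5 was the most abundant, with 308 RPKM and a log2 fold change of 0.14 per the authors' deposited table. PRDX2, a cytosolic form, had 88.6 RPKM and -0.01, and PRDX6, which works with glutathione, had 54.3 RPKM and -0.0025 per the authors' deposited table. PRDX4, the peroxiredoxin of the endoplasmic reticulum, had 41.0 RPKM and 0.10 per the authors' deposited table. PRDX3, which is mitochondrial, had 36.5 RPKM and -0.15 per the authors' deposited table. PRDX1, a cytosolic form and known NRF2 target, had 42.7 RPKM and 0.08 per the authors' deposited table, with an interval of -2.86 to 3.01 and an implied standard error above that of 97.6% of the 1786 genes within 2-fold of its level.

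Further genes of the thioredoxin system and of oxidative repair were mostly below 0. Of 20 listed genes 16 were measured, 11 below 0 and 5 above, where 51.0% of all genes kept were above 0. Their median log2 fold change was -0.22, and 2 were at least 1.5-fold lower (12.5%, background 4.95%) and 0 as far above. TXNIP, which binds and inhibits thioredoxin, was lowest at -1.74 per the authors' deposited table (22.3 RPKM, implied standard error 1.07, unadjusted p = 0.102). SESN1, a p53-induced sestrin, had -0.77 and OXR1, an oxidation resistance gene, -0.58 per the authors' deposited table. With the regression taken off, 6 of 15 genes were above 0, beside 5579 of 11104 genes. SESN1 then had -0.55 and 1 of the 15 was past 1.5-fold lower (6.67%, background 3.96%), SESN2 at -0.70. TXNIP had no GC content and was not among the 15. TXN, whose protein TXNIP binds, had the value near 0 given above.

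Superoxide is turned to peroxide by superoxide dismutases, and catalase splits peroxide. SOD1, the cytosolic copper-zinc enzyme, had 127 RPKM and a log2 fold change of -0.05 per the authors' deposited table. SOD2, the mitochondrial manganese enzyme, had 2.67 RPKM and 0.03 per the authors' deposited table. CAT (chromosome 11, 34460472 to 34493609, plus strand) had 6.94 RPKM and -0.34 per the authors' deposited table, the second lowest of the measured members, with an interval of -2.48 to 1.79. SOD2 overlaps WTAP over 30735 bases on the opposite strand, and with a strand setting not given in the sources used here, reads of the pair may not have been told apart.

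**Figure D2:**
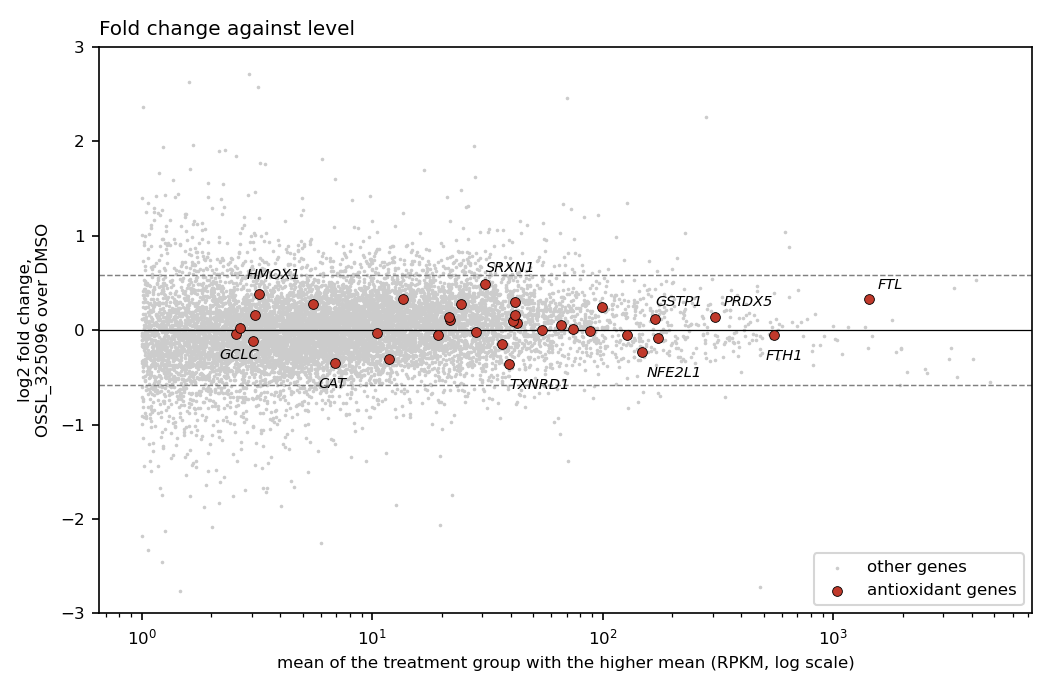
Log2 fold change of OSSL_325096 over DMSO against the mean of the treatment with the higher mean (RPKM, log axis) for the 34 measured antioxidant genes (red) and the other genes of at least 1 RPKM (grey). Dashed lines mark 1.5-fold and 9 genes lie beyond the vertical axis; the red points stay between the dashed lines from GCLC at 2.57 RPKM to FTL at 1436 RPKM.

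NADPH feeds both systems. PGD, TALDO1 and TKT, enzymes of the pentose phosphate pathway, had 66.0, 74.2 and 41.7 RPKM per the authors' deposited table, with log2 fold changes of 0.05, 0.01 and 0.17. ME1 (chromosome 6, 83920108 to 84140797, minus strand), cytosolic malic enzyme, had 11.8 RPKM and -0.31 per the authors' deposited table, with an interval of -2.37 to 1.76. Above 0 were 3 of these 4 genes as deposited, where 51.0% of all genes kept were. After the regression on GC content, length and level was taken off, 0 of 4 were, beside 5579 of 11104 genes. PGD, TALDO1 and TKT then had -0.054, -0.11 and -0.046. Of 15 other listed genes of NADPH supply 14 were measured, 8 below 0 and 6 above, with a median of -0.08, and 4 were at least 1.5-fold lower (28.6%, background 4.95%). By size these were MTHFD2, at -0.76 per the authors' deposited table (143 RPKM, unadjusted p = 0.474), NADK2 at -0.74 and ALDH1L2 at -0.74, with IDH1 at -0.62, which is named because it completes the 4. With the regression taken off 2 of 14 were past 1.5-fold lower (14.3%, background 3.96%), MTHFD2 at -0.64 and ALDH1L2 at -0.63. NADK2 then had -0.58 and IDH1 -0.51. MTHFD2, ALDH1L2 and NADK2 are mitochondrial enzymes, the first pair of the folate pathway and the third an NAD kinase, and IDH1 is cytosolic isocitrate dehydrogenase.

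Ferritin stores iron in a shell of light and heavy chains, and both of its genes can be raised by NRF2. FTL (chromosome 19, 49468558 to 49470135, plus strand) had the highest level of the 36 genes, 1436 RPKM, and a log2 fold change of 0.33 per the authors' deposited table, with an interval of -1.74 to 2.40. FTH1 (chromosome 11, 61727190 to 61735132, minus strand) had 553 RPKM and -0.06 per the authors' deposited table, with an interval of -2.07 to 1.96. Of 15 other iron and haem genes 14 were measured, 7 above 0 and 7 below, with a median of 0.01. HMOX2, the constitutive haem oxygenase, was the 1 gene of the list at least 1.5-fold higher (7.14%, background 4.95%). Its value was 0.66 per the authors' deposited table (18.7 RPKM, unadjusted p = 0.514). TFRC, the transferrin receptor, had 0.50 and PCBP1, an iron chaperone that loads ferritin, 0.37 per the authors' deposited table. With the regression taken off, HMOX2 had 0.50, inside 1.5-fold, and TFRC, at 0.60, was the 1 gene of 13 past it (7.69%, background 3.43%).

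**Figure D3:**
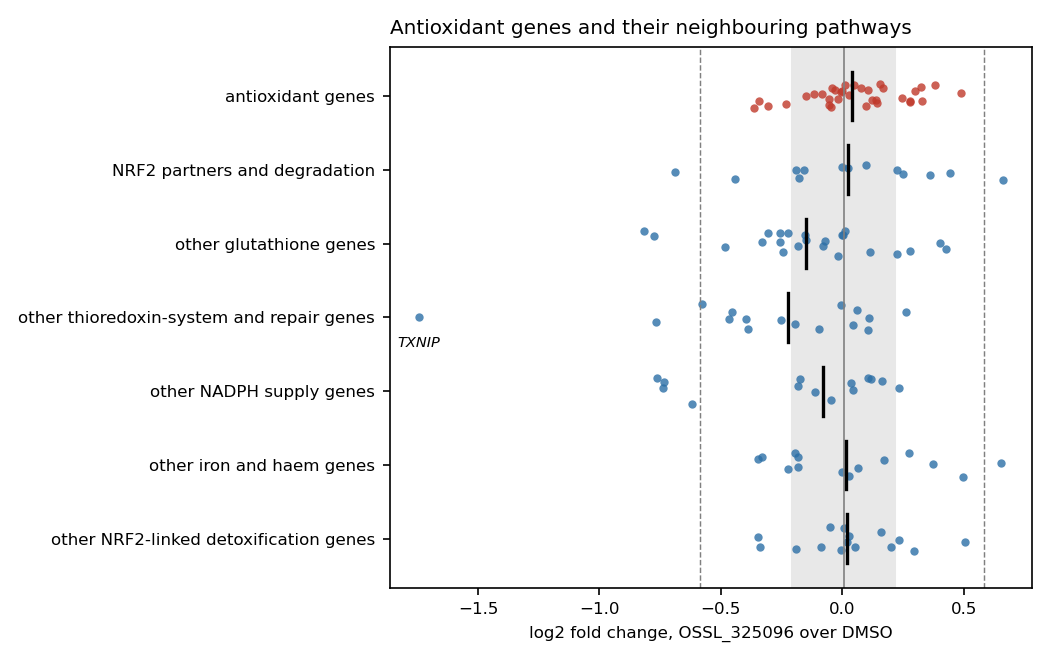
Log2 fold change of OSSL_325096 over DMSO for the 34 measured antioxidant genes (red) and the measured genes of the 6 neighbouring lists (blue), 1 point per gene, with a black bar at each median. The grey band spans the quartiles of all 11324 genes, -0.21 to 0.22, and dashed lines mark 1.5-fold; the antioxidant genes have 0 points outside the dashed lines and TXNIP is the lowest gene shown.

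Beyond their function, the members shared a high level. Their median was 37.8 RPKM, against 6.76 RPKM over all genes kept, and 28 of 34 lay above that overall median. Levels over 100 RPKM were found for 7 members, and levels under 10 RPKM for 7, among them both ligase subunits, HMOX1, CAT and SOD2. Across the 33 measured members with a transcript GC content in GENCODE 44, the log2 fold change was higher in transcripts richer in GC (Spearman rho 0.60), as it was across the 11104 genes with that value (0.47). These are descriptions across genes of the same libraries, which are not independent replicates. KEAP1 and GPX4, with GC contents of 62.1% and 62.4%, moved to 0.051 and 0.0037 once a regression on GC content, length and level was taken off, and TXN, with 35.6%, moved to 0.12. SRXN1, FTL and TXNRD1 stayed at 0.40, 0.36 and -0.33. GCLM moved to 0.31, and NFE2L1 to -0.35. The median over the 33 was then 0.0025.

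**Figure D4:**
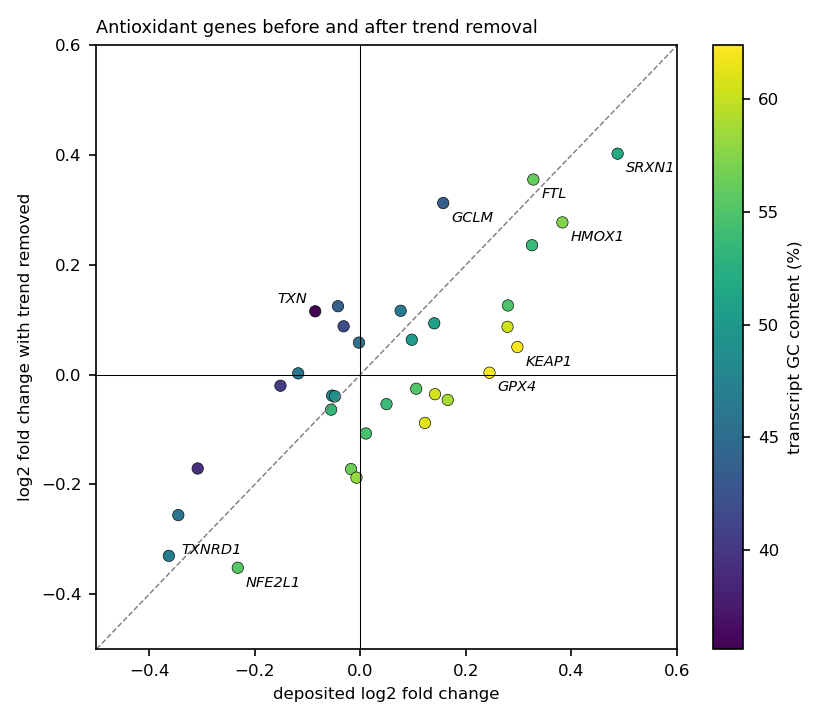
Log2 fold change of OSSL_325096 over DMSO after removal of its regression on GC content, transcript length and level (vertical axis) against the deposited value (horizontal axis) for 33 antioxidant genes, coloured by transcript GC content. Points off the dashed line of equality moved; KEAP1 and GPX4, which are rich in GC, drop toward 0; SRXN1 stays highest, and NFE2L1 moves below TXNRD1 to become lowest.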

How the data were processed

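Per the series' design text, the authors mapped reads to hg19 and used Biomedical Genomics Workbench 5 for RPKM values and for the comparison. Its model, annotation, scaling, strand setting and counting rule were not given in the sources used here. Deposited was 1 table with 0 columns of single libraries. Its RPKM column is the larger of the treatments' means, per the file headers. The authors deposited a log2 fold change, the same quantity as a signed fold score, and p-values (unadjusted, false discovery rate, Bonferroni) for 23130 genes. The planned limma fit, replicate block and left-out libraries need single libraries, so the deposited values were used.

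Genes of at least 1 RPKM were kept and p-values adjusted by Benjamini-Hochberg over them. An implied standard error is the absolute log2 fold change over the normal quantile of its p-value, and intervals (95%) use it; both are exact only for a two-sided normal test. GC content and length are medians over a gene's GENCODE 44 transcripts (98.1% of genes kept). The trend used terms up to degree 3, and its removal was tested on simulated data. Those had a smaller standard error than these data and shifts larger than any measured member's, so the test does not show how well removal works here. Members were named by the rule, and of each other list the 3 genes farthest from 0; IDH1, MAFF, CHAC2 and SESN2 were named after their values were seen, and the trend was removed from the other lists after seeing the data. The members and lists were chosen with earlier results of these data known. Of 116 other list genes 1 (TIGAR) was matched by identifier. Python 3.11.15, pandas 2.3.3, numpy 2.4.6 and scipy 1.17.1 were used.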

Additional observations from a re-analysis of the deposited data

How the results depend on the processing

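The count of members called by adjusted p was 0 at no minimum on RPKM, at a minimum of 5 RPKM and by the deposited false discovery rate, and 0 members were 1.5-fold higher under any alternative. With no minimum on RPKM, 1 member was at least 1.5-fold lower (GPX1). After removal of the regression on GC content, length and level, 17 of 33 members were above 0 and their median log2 fold change was 0.0025; the direction turned for 11 members, none of which had passed the test: PRDX5 (-0.035), TXN (0.12), GSTP1 (-0.088), TALDO1 (-0.11), PGD (-0.054), PRDX6 (0.059), TKT (-0.046), GSS (-0.026), NFE2L2 (0.088), MGST3 (0.0025) and GCLC (0.12). The trend was removed by construction, and SOD2 had no GC content and was left out. Subtracting the median of all genes turned 0 members. No paired analysis was possible because the table has no columns of single libraries; the limma fit and leaving out each library were not run for the same reason. Depth is unknown, which limits GPX1 and OSGIN1 most.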

Other observations

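Many of these genes have processed pseudogenes, whose near-identical sequence can take or lose reads. For 10 members the table has 58 rows named as their pseudogenes, 25 of them for FTH1 and 16 for FTL. Of the 58 rows, 56 were listed at 0 RPKM. The 2 above 0 were PRDX3P2, at 0.349 RPKM, and FTLP5, at 0.0851 RPKM. With the counting of reads that match several places not given in the sources used here, levels of these members are uncertain.

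Several members overlap another measured gene. PRDX2, with 88.6 RPKM per the authors' deposited table, lies inside the region of HOOK2, with 5.30 RPKM, on the same strand over 5061 bases. TXNRD1 holds the pseudogene RPL18AP3 on its own strand, with 9.46 RPKM.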
